A study of Macaca fascicularis with 12 samples.

Results

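IFI44, LGALS3BP and other less-studied genes that interferon induces were followed in the brain of macaques injected with a baculovirus vector. The group of 10 genes was chosen by symbol: IFI44, IFI44L, IFI35, EPSTI1, PLSCR1, LAP3, LGALS3BP, RTP4, DTX3L and ISG20. Every probe set whose only gene symbol in the array annotation is one of these was taken. That gave 11 probe sets for 8 genes, of 52766 probe sets in all. No probe set carries the symbol IFI44L or LAP3 in that annotation, so these were not analysed here. EPSTI1 has 2 probe sets, both too dim for the intensity filter. The remaining 9 probe sets, for 7 genes, were among the 31660 that were tested.

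The samples came from 3 adult male cynomolgus macaques (Macaca fascicularis), with no genetic change named in the labels. In each animal the left striatum received 4 injections of baculovirus BV-HSVtk, 10 µL with 1e8 viral particles each, and the right striatum a mock preparation at matching coordinates. The mock preparation was virus-free Sf9 insect cell medium taken through the same purification, membrane chromatography followed by high-speed centrifugation. Tissue was taken after 2 days as pieces of about 100 mg, 2 per hemisphere, each on 1 array, which gives 6 BV and 6 mock arrays. Replicates 1 and 2 are animal 1, replicates 3 and 4 animal 2, and replicates 5 and 6 animal 3, where an odd number is piece 1 and an even number piece 2. The sample titles number the replicates and name neither animal nor piece. The virus went to the left side in every animal, so its effect and that of the side cannot be told apart. Baculoviruses infect insects and enter mammalian cells without replicating there, and HSVtk stands for herpes simplex virus thymidine kinase.

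Type I interferons are secreted when cells sense virus. They bind a receptor on the cell surface, and the signal it sends to the nucleus switches on a large set of genes. Neurons, astrocytes, microglia and vessel cells of the brain can all respond. Some products, such as ISG15 and MX1, are well studied. The genes described here are induced along with them, and several have roles that are still being worked out.

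All 7 measured genes had higher mean values in BV-injected tissue, where 46.9% of all tested probe sets were higher. They were higher in 6 of 6 replicate pairs, against 3.39% of all tested probe sets, and so in each of the 3 animals. In the fit on 3 animals none passed the adjusted threshold of 0.05. IFI44 and LGALS3BP had the largest differences, 2.41 ± 0.36 and 2.41 ± 0.26 on the log2 scale (BV minus mock, ± the standard error of the limma fit, n = 3 animals), or 5.32-fold for both. PLSCR1 followed at 1.65 ± 0.37, DTX3L at 1.27 ± 0.31, IFI35 at 1.16 ± 0.21, ISG20 at 1.02 ± 0.29 and RTP4 at 0.89 ± 0.21. The median over the 7 genes was 1.27, beside -0.02 over all 31660 probe sets. A second probe set, present for IFI44 and PLSCR1, gave 2.54 ± 0.37 and 1.41 ± 0.34.

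These counts can be read against the array as a whole. In limma on hemisphere means, 0 of 9 member probe sets passed after Benjamini-Hochberg adjustment over all probe sets, where 0.0284% of probe sets were called higher. At an unadjusted p under 0.05, 9 of 9 were higher and 0 lower, against 5.16% of all probe sets called higher. All 9 were higher in 6 of 6 pairs, as were 3.39% of all probe sets. A difference above 1 on the log2 scale was found for 8 of 9, against 1.34%. When single arrays were fitted with replicate number as the block, 3 of 9 passed, against 0.167%: both IFI44 probe sets (adjusted p = 0.0265 for each) and LGALS3BP (adjusted p = 0.00913). In that fit 9 of 9 were higher at an unadjusted p under 0.05, against 7.32%, and the pieces of 1 animal count as separate samples. With the animal as a random block on single arrays (duplicateCorrelation) the same 3 probe sets passed, against 0.0758% called higher. The correlation within animals was estimated at 0.066, so this fit too counts the pieces of 1 animal nearly as separate samples. Without animal 2, the fit on the hemisphere means of the other 2 animals called 9 of 9, against 3.73% of all probe sets called higher. In that fit 1898 probe sets passed, against 9 with all animals. Animal 2, the one left out, had the smallest difference for 7 of 7 genes. Markers of striatal medium spiny neurons had median differences of -1.72, 1.04 and -2.30 in animals 1, 2 and 3. Without animal 1 the fit called 0 member genes and 1 probe set, and without animal 3 it called 2 and 72.

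**Figure D1:**
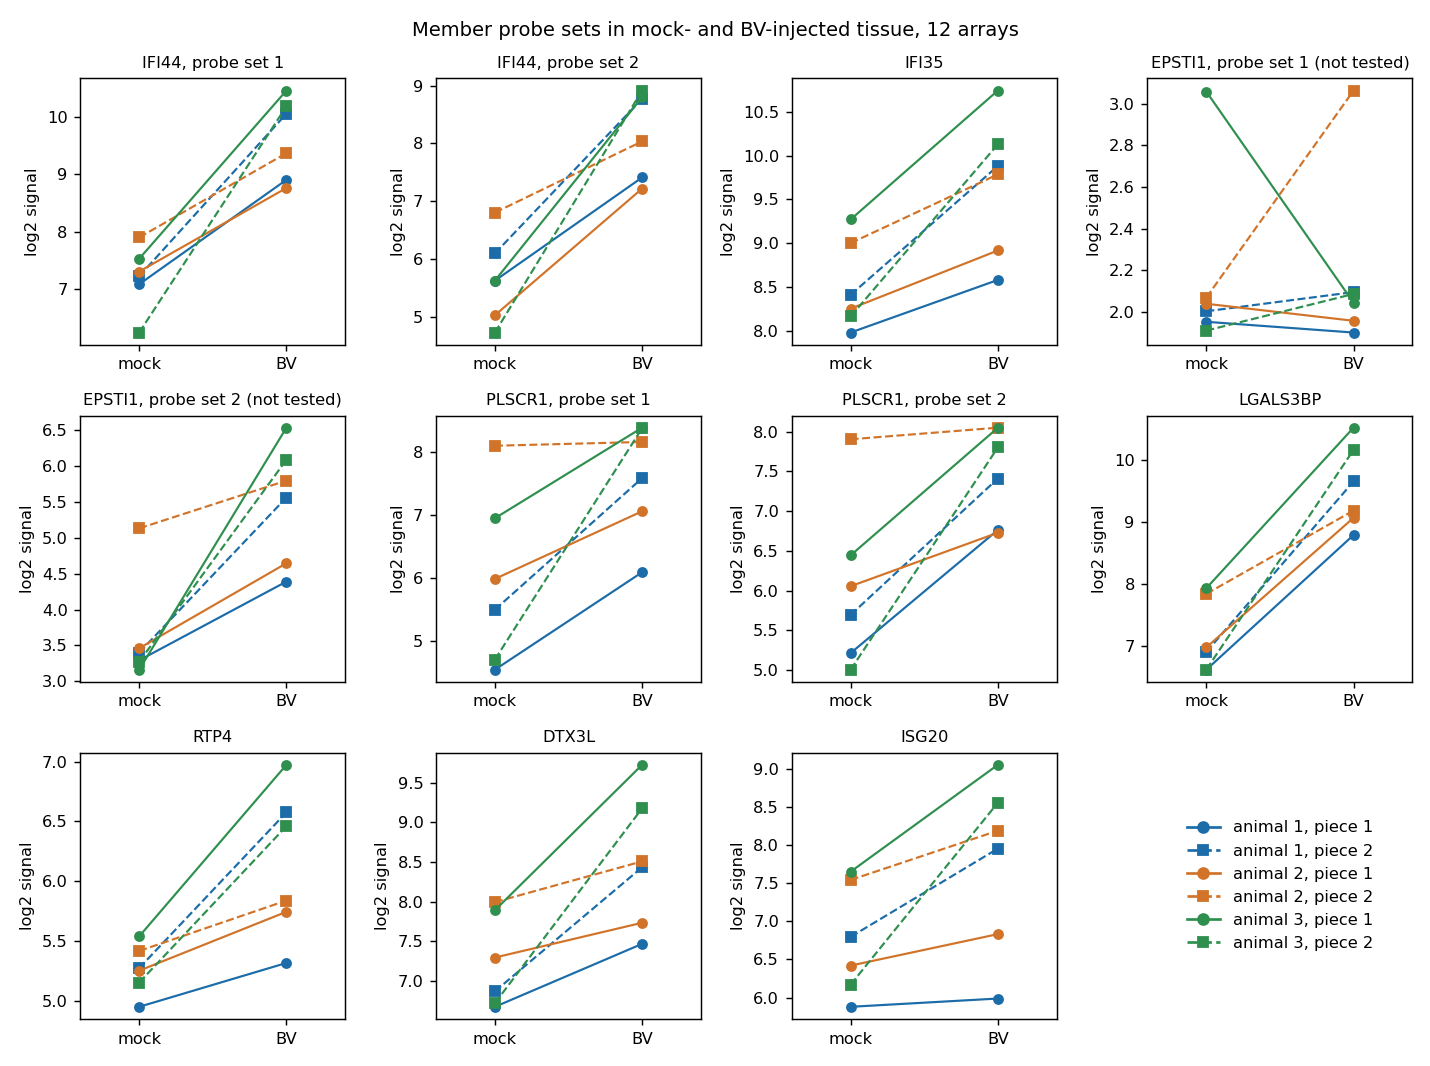
Log2 signal (quantile-normalized, y axis, a scale of its own in each panel) of the 11 member probe sets in mock and BV tissue (x axis). Each line joins the 2 arrays of a replicate pair, with colour for the animal, circles for piece 1 and squares for piece 2. BV is higher in all 6 pairs in 10 panels, while the very dim first EPSTI1 probe set was higher in 3 of 6 pairs.

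IFI44 encodes a cytoplasmic protein first found with microtubular aggregates in hepatitis, and its neighbour and relative is IFI44L. In the RefSeq gene table of Macaca fascicularis (assembly T2T-MFA8v1.1) both genes lie next to each other, with no protein-coding gene between them. The brighter IFI44 probe set, MmugDNA.12892.1.S1_at, had log2 signals of 8.76 at lowest, 9.71 at the median and 10.46 at highest on the 6 BV arrays. On the 6 mock arrays it had 6.24, 7.26 and 7.90. The groups did not overlap, which was true of 0.237% of all probe sets. In deposited intensities the same probe set ran from 453 to 2100 in BV tissue and from 54.5 to 218 in mock tissue, again without overlap. BV replicate 5 was the highest array and mock replicate 6 the lowest. The difference was 2.33 in animal 1, 1.47 in animal 2 and 3.44 in animal 3 (limma adjusted p = 0.265).

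The second IFI44 probe set, MmuSTS.3682.1.S1_x_at, was dimmer and showed the same picture. It had 7.22, 8.40 and 8.92 (lowest, median, highest log2 signal) on BV arrays and 4.73, 5.63 and 6.80 on mock arrays, without overlap. The suffix x marks probes that may bind related transcripts, and whether it also binds IFI44L was not tested. Its differences in animals 1, 2 and 3 were 2.23, 1.71 and 3.68 (limma adjusted p = 0.251).

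LGALS3BP encodes a secreted glycoprotein that binds galectins, integrins and matrix proteins. Its 1 probe set, MmuSTS.1439.1.S1_at, had log2 signals of 8.79, 9.42 and 10.52 (lowest, median, highest) on BV arrays and 6.63, 6.95 and 7.94 on mock arrays. The groups did not overlap here either. Deposited intensities ran from 463 to 2191 in BV and from 72.0 to 289 in mock tissue. Pair differences lay between 1.34, in replicate 4, and 3.54, in replicate 6. Animals 1, 2 and 3 had 2.46, 1.71 and 3.06. With a limma p of 0.000103 it ranked 21 of 31660 probe sets (adjusted p = 0.155). It passed in the piece 1 arrays alone (2.28, adjusted p = 0.045) and not in the piece 2 arrays alone (2.54, adjusted p = 0.698).

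PLSCR1, phospholipid scramblase 1, is a membrane-bound protein that can also enter the nucleus and hinders the entry of some viruses. Its brighter probe set had log2 signals of 6.09, 7.88 and 8.39 (lowest, median, highest) on BV arrays and 4.54, 5.74 and 8.11 on mock arrays. The groups overlapped: 3 BV arrays lay above the highest mock array, mock replicate 4, and 5 lay above the next, mock replicate 5, with BV replicate 1 below both. The pair of that array, replicate 4, had a difference of only 0.06, while the other 5 pairs ran from 1.08 to 3.69. Animals 1, 2 and 3 had 1.83, 0.57 and 2.57 (limma adjusted p = 0.438). The other PLSCR1 probe set behaved alike, with pair differences from 0.15 to 2.79 and the smallest again in replicate 4.

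DTX3L is a ubiquitin ligase that works as a complex with PARP9, an ADP-ribosyltransferase family member. DTX3L had log2 signals of 7.47, 8.47 and 9.72 (lowest, median, highest) on BV arrays and 6.67, 7.08 and 7.99 on mock arrays. Both BV arrays below the highest mock array were piece 1 arrays, from animals 1 and 2. The differences were 1.18, 0.48 and 2.14 in animals 1, 2 and 3 (limma adjusted p = 0.5).

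IFI35 encodes a leucine zipper protein that pairs with NMI. It had log2 signals of 8.58, 9.83 and 10.74 on BV arrays and 7.98, 8.33 and 9.27 on mock arrays (lowest, median, highest). Of the 6 BV arrays, 4 lay above the highest mock array. The differences were 1.04, 0.72 and 1.72 in animals 1, 2 and 3, with a limma p of 0.00163 (adjusted p = 0.352).

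ISG20 is an exonuclease that degrades single-stranded RNA. It had log2 signals of 5.99, 8.07 and 9.06 on BV arrays and 5.88, 6.61 and 7.65 on mock arrays (lowest, median, highest). The groups overlapped: 4 BV arrays lay above the highest mock array, and only 1 mock array lay below the lowest BV array. Animals 1 and 2 had differences of 0.63 and 0.53, close to each other, and animal 3 had 1.90 (limma adjusted p = 0.564). The pair of replicate 1 had 0.11.

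RTP4 is a Golgi chaperone of receptors that also binds viral RNA. It was the dimmest tested gene relative to the filter, 0.76 log2 units above it. It had log2 signals of 5.32, 6.15 and 6.97 on BV arrays and 4.95, 5.26 and 5.54 on mock arrays (lowest, median, highest). All BV arrays but BV replicate 1 lay above the highest mock array. Animals 1, 2 and 3 had 0.83, 0.46 and 1.37 (limma adjusted p = 0.488).

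EPSTI1, first described in epithelial cells grown with stroma and active in macrophages, fell below the filter with both probe sets. The brighter one, MmugDNA.15476.1.S1_at, had a mean log2 signal 0.39 below the filter. Its log2 signals were 4.39, 5.68 and 6.54 on BV arrays and 3.16, 3.35 and 5.13 on mock arrays (lowest, median, highest). Mock replicate 4 was the only mock array above 3.46, and all 6 pairs were higher in BV tissue. Without the filter it had 1.89 ± 0.42 (limma, adjusted p = 0.559 over 52766 probe sets). The fit on 6 pairs without the filter gave a limma adjusted p = 0.149, where 0.072% of probe sets were called higher and 2 members, IFI44 and LGALS3BP, passed. The other EPSTI1 probe set, at deposited intensities from 0.212 to 7.24, lay at the floor of the scale and shows no order.

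**Figure D2:**
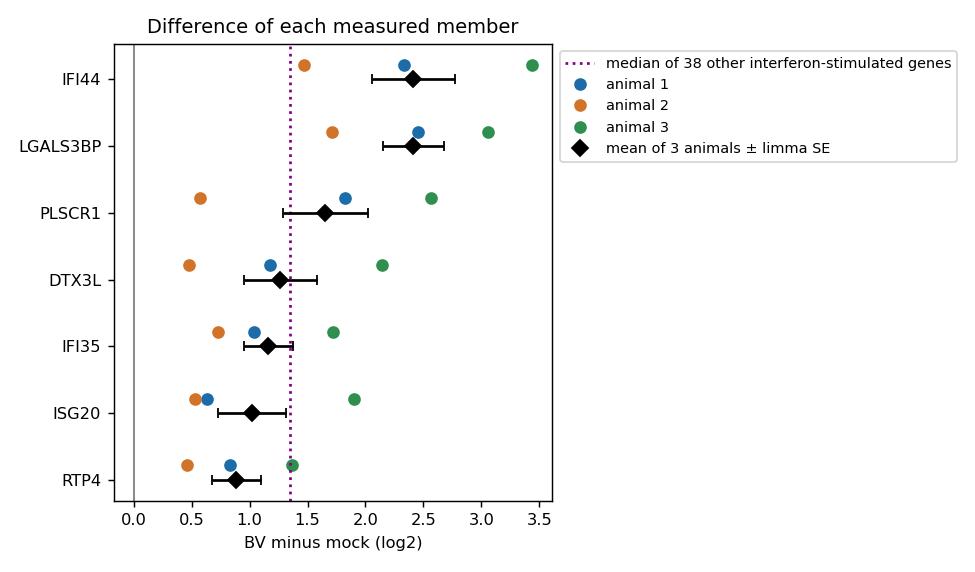
BV minus mock (log2, x axis) of the 7 measured genes (y axis, each by its brightest tested probe set). Coloured points are the 3 animals, black diamonds their mean with the limma standard error, and the dotted line is the median of 38 other interferon-stimulated genes, 1.35. IFI44 and LGALS3BP stand at 2.41, and animal 3 is rightmost and animal 2 leftmost for every gene.

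Neighbours in the order of the differences were compared within animals. That order was taken from the same differences, so the direction of each mean was set in advance. Between IFI44 and LGALS3BP the paired difference was 0.00 ± 0.33 (SD over 3 animals). LGALS3BP exceeded PLSCR1 by 0.76 ± 0.34 (SD, n = 3) and did so in 3 of 3 animals. PLSCR1, by its brighter probe set, exceeded DTX3L by 0.39 ± 0.28 in 3 of 3 animals. Its other probe set had 1.63, 0.41 and 2.20 in animals 1, 2 and 3, against 1.18, 0.48 and 2.14 for DTX3L. With that probe set the order was reversed in animal 2. The lower neighbours did not differ beyond their spread: DTX3L and IFI35 by 0.11 ± 0.34, IFI35 and ISG20 by 0.14 ± 0.29, and ISG20 and RTP4 by 0.13 ± 0.37. With 3 animals an exact two-sided sign permutation test cannot go below 0.25, so no such test was run.

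Animals differed in the same order for every gene. The difference was largest in animal 3, intermediate in animal 1 and smallest in animal 2 for 7 of 7 genes. Without animal 3 the differences of DTX3L and ISG20 were 0.82 and 0.58. That order of animals held for 27 of 38 other interferon-stimulated genes and for 25.9% of all probe sets. Medians over the 7 genes were 1.18, 0.57 and 2.14 in animals 1, 2 and 3. Animal 2 had the highest mock level for 5 of 7 genes, and animal 3 the highest BV level for 7 of 7. IFI44 shows both: its BV log2 signals were 9.48, 9.07 and 10.32 in animals 1, 2 and 3, and its mock log2 signals 7.15, 7.60 and 6.88. A limma F test for whether the difference varied between animals, on 12 arrays, called 0 of 9 member probe sets, adjusted or at an unadjusted p under 0.05 (5.11% of all probe sets were under it). The smallest unadjusted p was 0.0507, for the brighter IFI44 probe set (limma, adjusted p = 0.891).

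Medians over the 7 genes lay closer together for the 2 pieces than for animals 2 and 3. The spread between pieces was not tested against that between animals. For 7 of 7 genes the difference was larger in the piece 2 arrays than in the piece 1 arrays, with medians of 1.51 and 1.02. The test of that difference within animals called 0 of 9 probe sets after adjustment. ISG20 was the 1 gene at an unadjusted p under 0.05, with a piece 2 minus piece 1 difference of 0.76 ± 0.27 (limma adjusted p = 0.995), where 3.45% of all probe sets were under it. The lowest BV array was BV replicate 1, a piece 1 array, for 6 of 7 genes. The highest mock array was mock replicate 4 for 3 genes and mock replicate 5 for 4 genes.

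Array sets and RNA quality were compared beside these values. Piece 2 arrays had median intensities from 25.4 to 29.3 in BV and from 29.2 to 32.7 in mock tissue. Piece 1 arrays had 50.2 to 58.0 in BV and 52.2 to 62.8 in mock tissue. The BV array had the lower median in every pair. Means trimmed by 2% at each end were 100.0 on all piece 2 arrays and from 142 to 189 on piece 1 arrays. Piece number and this difference in scale coincide, so they cannot be told apart. The ratio of actin probe signals at the 3' and 5' ends, which grows as RNA degrades, ran from 1.10 to 1.34 on piece 1 arrays, from 1.23 to 1.30 on BV piece 2 arrays and from 1.24 to 2.40 on mock piece 2 arrays, with the highest on mock replicate 6. That array was lowest for IFI44. Without it the differences were 2.20 for IFI44 (adjusted p = 0.0488), 2.19 for LGALS3BP (adjusted p = 0.0166), 1.28 for PLSCR1, 1.07 for DTX3L, 0.97 for IFI35, 0.82 for RTP4 and 0.77 for ISG20. Leaving out the whole pair of replicate 6 from the fit on pairs kept the calls of IFI44 (2.11, adjusted p = 0.0263) and LGALS3BP (2.18, adjusted p = 0.00811), with 0.126% of all probe sets called higher.

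Known partners of the members were compared with them by animal. PARP9 overlaps DTX3L in the RefSeq table and had a difference of 1.49 ± 0.32 (limma adjusted p = 0.424). DTX3L minus PARP9 was -0.17, -0.25 and -0.25 in animals 1, 2 and 3, with a mean of -0.22 ± 0.04 (SD). A dimmer PARP9 probe set went the other way, at -0.47. PARP14, a relative of PARP9, had 1.74 ± 0.38 (adjusted p = 0.438). NMI, the partner of IFI35, had 1.22 ± 0.35 (adjusted p = 0.564) and IFI35 minus NMI was -0.06 ± 0.46 (SD), within the spread of the animals. The galectins LGALS3 and LGALS1, sugar-binding proteins to which LGALS3BP attaches, had 0.66 ± 0.27 and 0.40 ± 0.17 (adjusted p = 0.564 for both). LGALS3BP exceeded them by 1.75 ± 0.33 and 2.02 ± 0.26 (SD, n = 3), in 3 of 3 animals each. In all, 5 of 5 partners were higher in value, 0 passed, 3 had an unadjusted p under 0.05 and the median was 1.22.

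Relatives of the members, by sequence or, for ERAP1, LNPEP and ANPEP, only by enzyme class, were set beside them. Of 20 listed, 11 were measured, 7 higher and 4 lower in value, with 0 called, 2 at an unadjusted p under 0.05 (DTX1 and ERAP1) and a median of 0.00. Phospholipid scramblases PLSCR3 and PLSCR4 had 0.14 ± 0.21 and -0.36 ± 0.20, against 1.65 for PLSCR1. Deltex genes DTX2, DTX3 and DTX4 had 0.04 ± 0.18, 0.00 ± 0.12 and -0.03 ± 0.15. DTX1 had 0.89 ± 0.25 for its brighter probe set and -0.09 for the other. ISG20L2, a nuclease related to ISG20, had -0.33 ± 0.19. Among aminopeptidases, the enzyme class of LAP3, ERAP1, which trims peptides for MHC class I, had 0.66 ± 0.20 for its brighter probe set and 0.27 for the other, while NPEPL1, LNPEP and ANPEP had -0.24 ± 0.16, 0.00 ± 0.18 and 0.01 ± 0.14. Adjusted p for these relatives ran from 0.564 upward in limma.

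**Figure D3:**
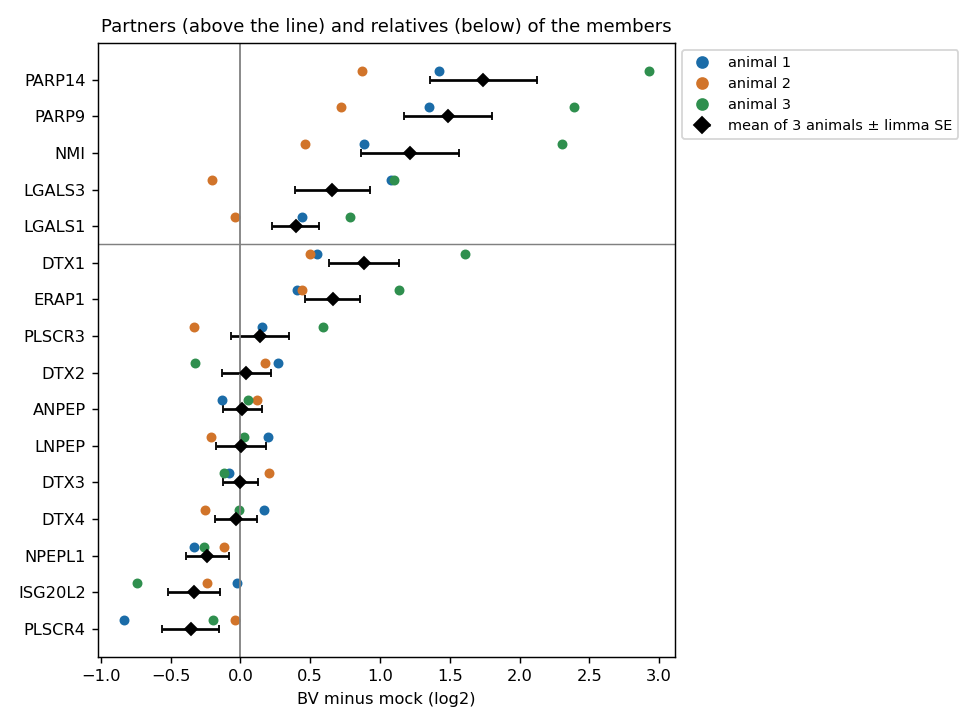
BV minus mock (log2, x axis) of 5 partners of the members (above the grey line) and 11 relatives by sequence or enzyme class (below it), each by its brightest tested probe set. Coloured points are the 3 animals and black diamonds their mean with the limma standard error. PARP14, PARP9 and NMI lie above 1 and most relatives lie near 0.

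The wider interferon programme gives the scale. Of 51 other interferon-stimulated genes 38 were measured, 35 higher and 3 lower, with a median of 1.35, near the 1.27 of the members. The list includes PARP9, PARP14 and NMI. In limma on hemisphere means 4 of them passed, and 10 in the fit on 6 pairs. The 3 with the smallest p were ISG15 at 3.55 ± 0.13, MX1 at 3.04 ± 0.19 and IFIT3 at 2.12 ± 0.13 (adjusted p = 0.00544, 0.0248 and 0.0248). ISG15 had 3.36, 3.59 and 3.71 in animals 1, 2 and 3, a spread much narrower than that of IFI44. Of 20 ligand, receptor and signalling genes 9 were measured, with 6 higher, 3 lower, 0 called and a median of 0.13. The largest was IRF1, a transcription factor that interferon-gamma induces, at 1.00 ± 0.40. Next came the receptor chain IFNAR2 at 0.74 ± 0.25 (limma adjusted p = 0.564 for both). A dimmer IFNAR2 probe set, below the filter, had 0.19. The 3 lower were IRF7 at -0.89 ± 0.64, TYK2 at -0.23 ± 0.21 and SOCS1 at -0.17 ± 0.14. IRF7 had -1.51, 1.21 and -2.37 in animals 1, 2 and 3. IFNB1 and IFNG were below the filter.

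Likeness was measured as Pearson's r with the mean centred profile of the 7 genes over the 12 arrays, which share treatment, animal and piece. Of 11136 other named genes the 5 most alike were TAP1 (0.987), MAMU-E (0.984), PARP9 (0.982), SAMD9L (0.979) and BST2 (0.979). TAP1 carries peptides to MHC class I, MAMU-E is a class I heavy chain, and BST2 tethers virus particles to the cell surface. The MAMU-E probe set also carries the suffix x, and whether it binds other class I transcripts was not tested. Each member also correlated with the mean of the other 6, from 0.896 for PLSCR1 to 0.979 for DTX3L.

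In whole tissue, a change in the number of cells of a type and a change in RNA per cell cannot be told apart, so marker lists are set beside the members. Of 19 microglia and macrophage markers 17 were measured, with 14 higher and a median of 0.54. Their summed signal ran from 8369 to 24659 in BV tissue and from 5439 to 16947 in mock tissue. Of 12 neutrophil markers 6 were measured, with 5 higher and a median of 0.95, and sums from 334 to 2199 and from 200 to 1517. Compared within pairs, the sums of both lists were higher in BV tissue in 6 of 6 pairs, as the members were. In animal 2 these lists had medians of 0.00 and 0.10, while the members had 0.57. Over 7 of 14 T and NK cell markers the median was 0.04, and over 2 of 6 B and plasma cell markers 0.51. Sums of T and NK cell markers ran from 1509 to 2048 in BV and from 1171 to 2015 in mock tissue, and were higher in BV tissue in 3 of 6 pairs. Of these 4 lists no gene was called in the limma fit on hemisphere means. In that fit 8, 3, 2 and 1 were higher at an unadjusted p under 0.05. In the fit on 6 pairs 1 gene of the neutrophil list passed, LCN2 (limma adjusted p = 0.0147). Its difference was 2.067 ± 0.282. On the same list S100A9 had 1.34 ± 0.41, CSF3R 1.08 ± 0.21 and S100A8 0.82 ± 0.44. ELANE had 0.02 ± 0.16 and MPO -0.19 ± 0.19. The largest differences on the microglia and macrophage list were LYZ at 1.465 ± 0.402 and MS4A6A at 1.446 ± 0.302 (limma adjusted p = 0.545 and 0.424). On that list 3 genes were lower in value. ITGAM, an integrin chain of the microglia and macrophage list, was the 1 gene of these lists lower at an unadjusted p under 0.05, at -0.62 ± 0.15 (limma adjusted p = 0.505). The genes S100A12, MMP8, MMP9, CD8B, MS4A1 and CD79A were below the filter. The part of these cells in the members' values was not tested.

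Astrocyte, oligodendrocyte, endothelial and pan-neuronal markers had medians of 0.03, 0.00, 0.17 and 0.17 over 6, 3, 8 and 4 measured genes. Of the astrocyte markers 3 were higher and 3 lower in value, and 2 were lower at an unadjusted p under 0.05. These were the glutamate transporter gene SLC1A2 at -0.998 ± 0.199 and S100B at -0.27 ± 0.08, both lower in 6 of 6 pairs (limma adjusted p = 0.406 and 0.564). Astrocyte sums ran from 14139 to 17396 in BV tissue and from 15512 to 19085 in mock tissue, and were higher in BV tissue in 2 of 6 pairs. Red cell markers had a median of -0.05 over 2 of 5.

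Pieces also differed in their signal of brain region markers. Markers of striatal medium spiny neurons, the projection neurons of the injected structure, had a median of -1.06 over 6 of 13 measured, and thalamic markers 0.61 over 6 of 11. The mean of the striatal markers differed between BV and mock by 0.96, -4.51, 1.45, 0.41, -3.08 and -1.09 in pairs 1 to 6. The median of the 7 members was 0.79, 1.56, 0.66, 0.65, 1.47 and 2.45 in the same pairs. Members were higher both in the 3 pairs with more striatal marker signal on the BV side and in the 3 pairs with less. Their medians were larger in the latter. The mean of the thalamic markers differed by -0.08, 1.58, -0.03, 1.08, 1.23 and 0.34. By animal their medians were 0.67, 0.48 and 0.90 in animals 1, 2 and 3, higher on the BV side in each. Of the 6 thalamic markers 5 were higher and 1 lower in value. In limma on hemisphere means 3 were higher at an unadjusted p under 0.05 and 0 were called. The part of region in the members' differences was not tested.

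**Figure D4:**
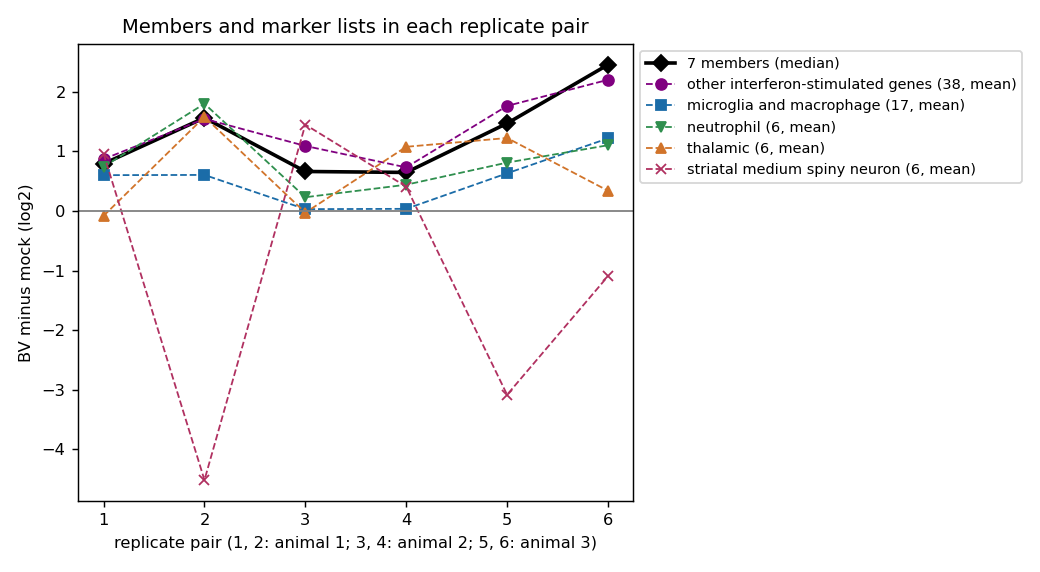
BV minus mock (log2, y axis) in each of the 6 replicate pairs (x axis) for the median of the 7 members and the means of 5 gene lists. The members stay above 0 in every pair, from 0.65 in pair 4 to 2.45 in pair 6, while striatal markers range from -4.51 in pair 2 to 1.45 in pair 3.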

How the data were processed

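Gene expression was measured on 12 one-colour rhesus macaque arrays. Total RNA (5 µg) was labelled, per the labels' protocols. The authors deposited a linear intensity per probe set and array. GCOS 1.4.0.036 is the software in the submitters' processing notes. The summary algorithm is not given in the sources used here. From these, control probe sets (99) were removed, arrays were quantile-normalized, and log2(signal + 3.49) was taken, with the 10th percentile of the values as pseudocount, so differences of dim probe sets are understated. Probe sets were tested if their mean reached the 40th percentile (4.95). Pieces of a hemisphere were averaged and fitted with limma 3.58.1 (R 4.3.3), blocked by animal, with a trended eBayes prior. The residual degrees of freedom were 2, and two-sided p-values were adjusted by Benjamini-Hochberg over all tested probe sets, at 0.05. Fits were tried on simulated data, for BV versus mock with an effect common to all animals and independent array noise. Effects that vary between animals and region differences between pieces were not part of that simulation, so it does not show how the fits perform with them. Each gene is represented by its brightest probe set.

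The block follows from the protocol: both sides come from 1 animal, and their deviations from the means of their groups had correlations of 0.622, 0.156 and 0.361 in animals 1, 2 and 3 over probe sets. Members, lists and the rule for named genes (all members, measured partners and relatives, the 3 other interferon-stimulated genes of smallest p, the 5 genes most alike) were chosen with earlier results of these data known. Genes named from the signalling and marker lists were picked after their values were seen. Cynomolgus RNA can bind rhesus probes less well, and symbols may be outdated: 24956 probe sets have 1 symbol, 361 several. Probe, promoter and protein sequences were not used here. Precision is limited by the number of animals and arrays. Alternatives covered the pseudocount, filter, normalization, test unit, array set, variance prior, probe set choice and each array or animal left out.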

Additional observations from a re-analysis of the deposited data

Results flagged for a closer look

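Of 22 sets of 6 arrays (11 member probe sets in 2 groups), 3 held an array far from the others by Dixon's criterion, which chance meets in about 1 in 20 sets. All 3 concern EPSTI1. Its brighter probe set had a log2 signal of 5.13 in mock replicate 4, where the other 5 mock arrays reached at most 3.46. Its dim probe set had 3.06 in BV replicate 4, with the others at most at 2.10, and 3.06 in mock replicate 5, with the others at most at 2.07. The brighter EPSTI1 probe set was also singled out as a signal in a probe set left out of the tests: its BV median was 5.68, above the highest mock array, at 5.13.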

How the results depend on the processing

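No member was called in the hemisphere fit. IFI44 and LGALS3BP were (2 genes) with the replicate block, which pairs the arrays by number, with animal as block on single arrays, with a term for piece added and with duplicateCorrelation. All probe sets called then numbered 55, 30, 38 and 25, against 9. These fits were on single arrays, where the pieces of 1 animal count wholly or nearly as separate samples. With piece 1 arrays alone 1 member (LGALS3BP) and 14 probe sets passed, and with piece 2 arrays alone 0 of both (1747 at an unadjusted p under 0.05). Without normalization, or without the variance trend, 1 probe set passed and no member. Leaving out 1 array gave 0 to 2 members (LGALS3BP without mock replicate 4, both without mock replicate 6) and 0 to 41 probe sets, the 0 without mock replicate 5, where limma had 1703 at an unadjusted p under 0.05. Leaving out 1 animal gave 0 to 7 members and 1 to 1898 probe sets, the highest without animal 2. The cause of these moves was not tested. Chosen after seeing the data, the replicate block without pair 6 called 2 members and 40 probe sets, and that block without the filter 2 and 38. Over 30 alternatives the 9 member differences gave 269 values, of which 0 changed sign, 235 kept their side of the threshold and 34 newly passed. All 9 were higher in 6 of 6 pairs, which nearly fixed the sign in advance. Settings that changed only the block or the variance prior left the differences themselves unchanged. RTP4 could not be fitted at the 60th percentile filter. The median member difference ran from 0.88 to 1.67 (without animal 3 and without animal 2).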
